A study of Homo sapiens with 11 samples.

Results

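Surface proteins are used to tell naive from primed human pluripotent stem cells and to sort one from the other, and 8 of their genes are described here: SUSD2, ALPPL2, ALPP, ALPL, IL6ST, THY1, CD24 and PODXL. They were found by gene name among the 23287 genes of both deposited expression tables, and all 8 were found in all 11 libraries. SUSD2, ALPPL2, ALPP and IL6ST (gp130) are known as marks of the naive side. THY1 (CD90) and CD24 are known as marks of the primed side, while ALPL and PODXL are known from pluripotent stem cells more widely.

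Naive cells resemble the pluripotent cells of the embryo before implantation and primed cells those after it, and both can be grown from the same human embryonic stem cell line in different media. SUSD2 is a single-pass membrane protein with sushi and somatomedin B domains, and antibodies against it are used to isolate naive cells. ALPPL2, ALPP and ALPL are alkaline phosphatases held to the outer membrane by a GPI (glycosylphosphatidylinositol) lipid anchor, as are THY1 and the small sialoglycoprotein CD24. IL6ST is the signalling receptor chain shared by LIF, interleukin 6 and related cytokines, and PODXL is the sialomucin that carries several antibody epitopes of human embryonic stem cells.

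RNA was sequenced from the lines H1 and H7, both established human embryonic stem cell lines, with 1 library per group. The 3 cultures were 5iLA naive H7 (5iLA is a medium with kinase inhibitors, LIF and activin A), t2iGo naive H1 (t2iGo contains kinase inhibitors and LIF) and primed H1. In each of them 1 library came from cells with the pCCNE1 shRNA, 1 from cells with the uCCNE1 shRNA and 1 from cells with a control shRNA, all collected 5 days after the lentivirus was added. The pCCNE1 shRNA targets a splice form of CCNE1, the gene of cyclin E1, that is found in primates. What the u of uCCNE1 stands for is not given in the labels. The other 2 libraries were untreated 5iLA naive H7 and untreated primed H7, and no time is given for them. All groups are human embryonic stem cells, and no other genotype or agent is given for any of them. Nothing in the labels says that libraries came from separate derivations of a culture.

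Values were RPKM, read counts scaled by transcript length and library size, which can be compared between genes because they are per length. RPKM tables carry no depth, which was estimated from the RPKM worth of a single read at 11.5 to 16.8 M reads in the 5iLA H7 shRNA libraries, 6.37 to 14 M in t2iGo H1 and 18.8 to 23.5 M in primed H1. It was 24.8 M in untreated 5iLA H7 and 13.3 M in untreated primed H7. At these depths 1 read on a transcript of 2 kb was worth 0.0202 to 0.0785 RPKM. CCNE1, counted over its splice forms together, was below the control shRNA library of its culture in all 6 libraries with a CCNE1 shRNA, at 37.3% to 88.2% of it. The description labels of the primed H1 libraries lack the lane number that those of the others carry, so this and the culture cannot be told apart.

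The labels were checked against markers of the naive and primed states. The summed level of 9 naive markers (KLF17, DPPA3, DPPA5, TFCP2L1, KLF4, KLF5, DNMT3L, TFAP2C and ARGFX) was 465 to 707 RPKM in the 5iLA H7 shRNA libraries, 8.95 to 10.3 RPKM in the libraries labelled t2iGo naive and 3.88 to 5.61 RPKM in primed H1. DPPA3 and DPPA5, genes of the early embryo and germ line, made up most of the 5iLA H7 sum, at 156 to 260 and 156 to 273 RPKM. They were at most 0.768 RPKM in the 3 libraries labelled t2iGo naive, where DPPA5 was listed at 0 in 2 of them. KLF17 and ARGFX were low even in 5iLA H7, at 1.23 and 1.61 RPKM at most. The summed level of 9 primed markers, among them ZIC2, OTX2, SFRP2, DUSP6, CDH2, SALL2 and VIM, was 11 to 21.5 RPKM in 5iLA H7, 419 to 490 RPKM in t2iGo H1 and 711 to 853 RPKM in primed H1. VIM, the intermediate filament vimentin, made up most of the t2iGo H1 sum, at 292 to 346 RPKM, against 170 to 190 RPKM in primed H1, and CDH2 was also higher there, at 59.9 to 60.1 RPKM, against 20.3 to 35.5 RPKM. ZIC2, OTX2, SFRP2, DUSP6 and SALL2 lay below primed H1 in all 3 t2iGo H1 libraries, as with ZIC2 at 16.2 to 22.0 RPKM, against 74.0 to 92.3 RPKM in primed H1. By the naive markers the t2iGo libraries went against their label, and they are called t2iGo H1 here by their medium. Untreated 5iLA H7 had 159 RPKM of the naive and 190 RPKM of the primed markers, against 2.62 and 274 RPKM in untreated primed H7, and VIM was 120 of the 190 RPKM. The summed level of 7 endoderm markers was 25.8 to 48.1 RPKM in t2iGo H1, 0.558 to 0.766 RPKM in 5iLA H7 and 0.939 to 3.69 RPKM in primed H1. In t2iGo H1, 5 to 7 of them reached 1 RPKM. AFP (4.71 to 21.6 RPKM) and APOA1 (12.6 to 16.5 RPKM) were the highest there, while SOX17 and FOXA2 were at most 1.33 and 1.17 RPKM. The part of such cells in the surface marker values was not tested.

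**Figure D1:**
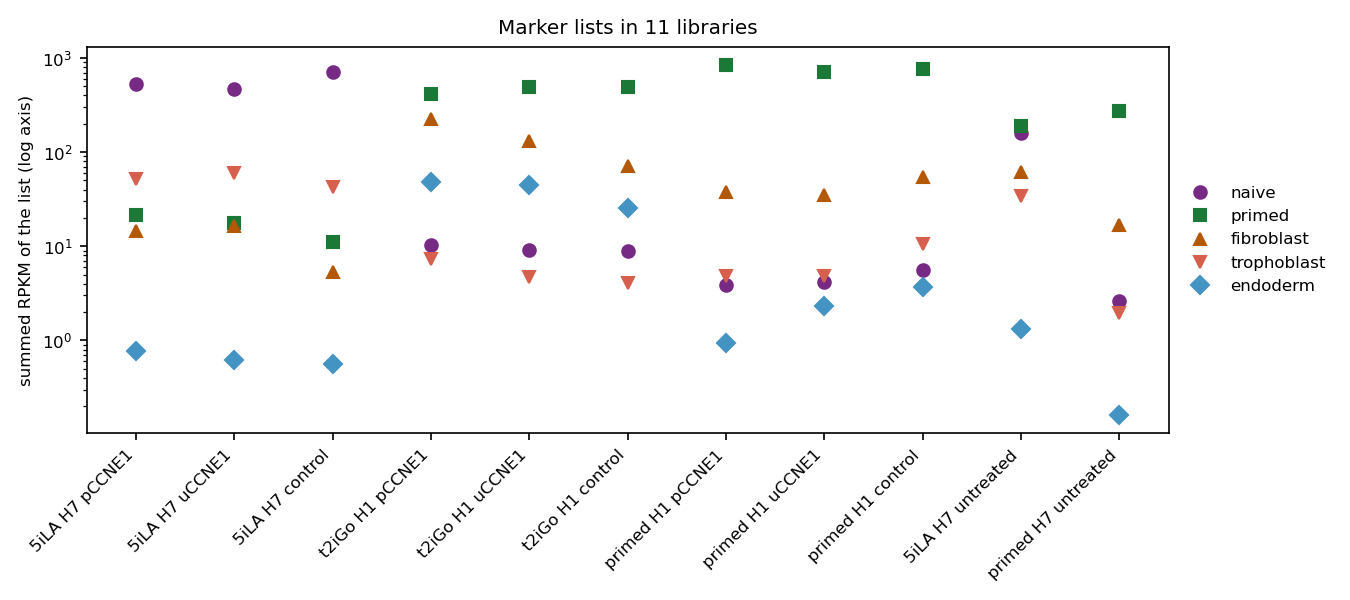
Summed RPKM (log axis) of the naive, primed, fibroblast, trophoblast and endoderm marker lists in each of the 11 libraries. The 3 shRNA libraries of 5iLA H7 hold 465 to 707 RPKM of the naive markers, while the t2iGo H1 libraries hold 8.95 to 10.3 RPKM of them and 419 to 490 RPKM of the primed markers, most of it VIM.

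ALPPL2 (named ALPG in RefSeq) and ALPP lie side by side on chromosome 2, at chr2:232406844-232410714 and chr2:232378751-232382889 on GRCh38.p14. Both were high in 5iLA alone, and so the 250 bases before each gene's start are shown from RefSeq on that build, both on the plus strand at chr2:232406594-232406843 and chr2:232378501-232378750. Capitals mark the bases that differ or have no partner when the sequences are aligned to each other.
ALPPL2: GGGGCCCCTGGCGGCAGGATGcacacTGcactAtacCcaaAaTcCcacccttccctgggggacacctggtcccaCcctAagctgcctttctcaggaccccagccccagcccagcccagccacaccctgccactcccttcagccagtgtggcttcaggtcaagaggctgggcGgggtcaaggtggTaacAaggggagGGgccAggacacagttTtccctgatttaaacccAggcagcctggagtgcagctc
ALPP: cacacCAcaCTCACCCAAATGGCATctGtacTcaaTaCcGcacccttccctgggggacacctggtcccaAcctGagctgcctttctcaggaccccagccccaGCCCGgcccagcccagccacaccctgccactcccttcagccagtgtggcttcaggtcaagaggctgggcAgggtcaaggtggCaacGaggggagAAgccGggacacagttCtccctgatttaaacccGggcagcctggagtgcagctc
Of 229 aligned bases 212 were identical (92.6%), and the first bases of the ALPPL2 window had no partner. The KLF motif GGGNGTGG, searched on both strands, occurred at the same 2 places in both, starting 132 and 122 bases before the gene start, and 15.7% of 35116 RefSeq promoter windows held it at least once. RefSeq windows were matched for 5 of the 8 genes, and the first listed was used where ALPL and CD24 had 3. The ALPL window also held 2 matches of the KLF motif, at 201 and 110 bases before the start, whereas the IL6ST and CD24 windows held none. The AP-2 motif GCCNNNGGC occurred once in ALPPL2, 247 bases before the start and apart from the KLF matches, and not in ALPP; 19.8% of windows held it. The letters TTCCNGGAA (a STAT motif), ATGCAAAT (the octamer) and TATAAA were not in either window. The transcripts are alike too, with 91.7% identity over 2457 aligned bases, and 29.3% of the 50-base stretches of ALPPL2 also occur in ALPP. How reads that fit both were counted is not given in the sources used here, so the split between ALPPL2 and ALPP is uncertain. ALPL shares none of its 50-base stretches with either of them.

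Cultures were compared with limma on log2(RPKM + 1) over all 9 shRNA libraries, with the shRNAs standing in for replicates, and Benjamini-Hochberg adjustment over the 12116 genes with a mean of at least 1 RPKM. What a p-value weighs here is the scatter among these libraries, some of which may be technical. 5iLA was used on H7 and primed medium on H1 among these libraries, so medium and cell line cannot be told apart in 5iLA H7 against primed H1 or against t2iGo H1. On the deposited scale most genes were lower in the libraries from naive media. The median difference of all tested genes on the log2(RPKM + 1) scale was -1.23 for 5iLA H7 against primed H1, -0.82 for t2iGo H1 against primed H1 and -0.31 for 5iLA H7 against t2iGo H1. Of the genes called, 9.15% were higher in 5iLA H7 than in primed H1 as deposited, against 44.7% to 47.7% after 3 other scalings of the libraries. For t2iGo H1 against primed H1 the share was 12.2%, against 46.7% to 56.3%, and for 5iLA H7 against t2iGo H1 it was 27.1%, against 40.5% to 51.8%. Each member's difference is to be read against these medians.

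**Figure D2:**
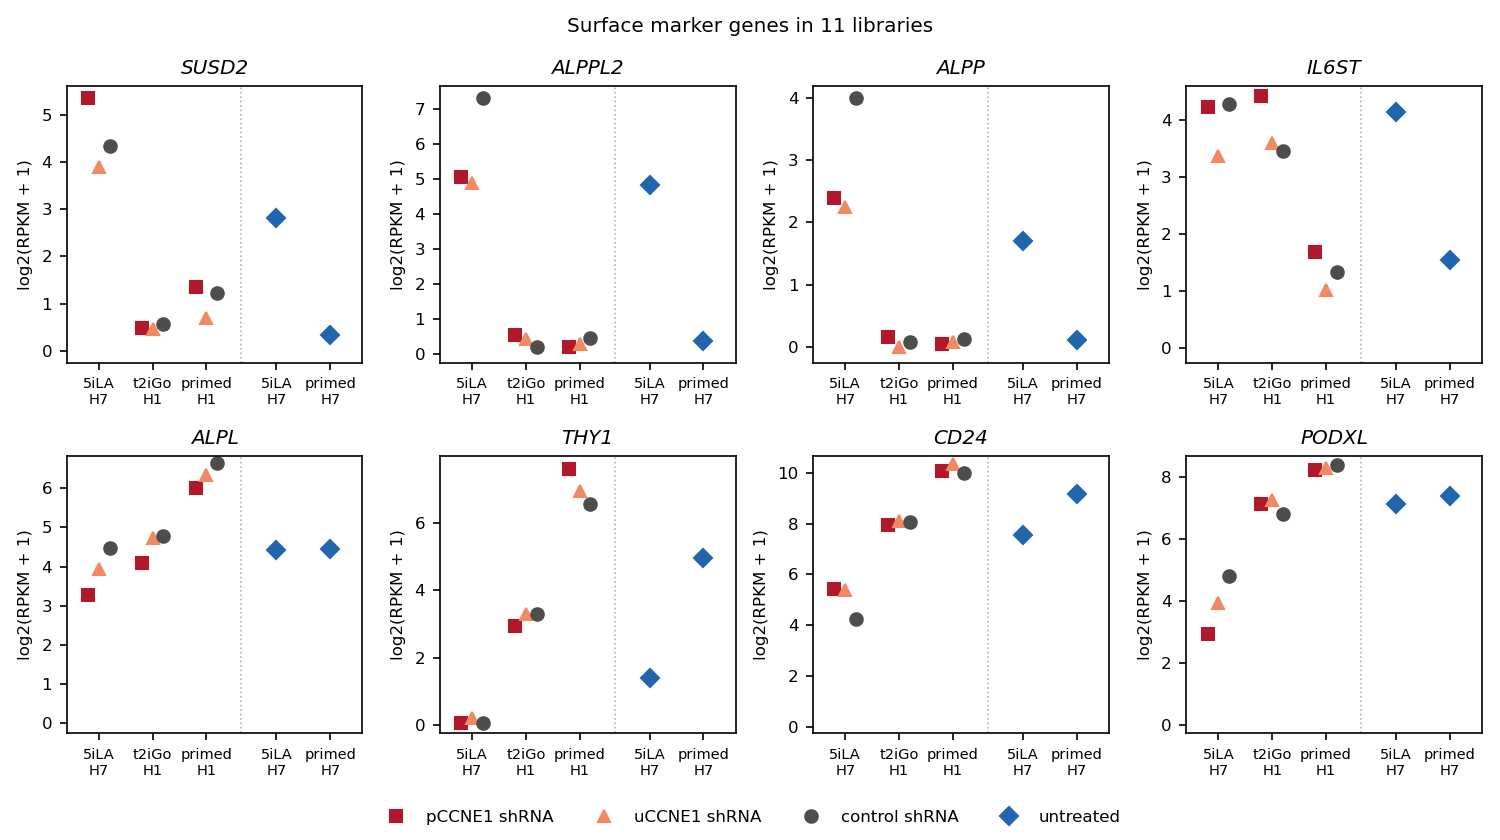
Level of each gene in log2(RPKM + 1) in all 11 libraries, by culture, with a marker shape for each shRNA. Untreated libraries lie right of the dotted line, where values come from a separate table, taken as scaled independently. SUSD2, ALPPL2 and ALPP are high in the 4 libraries from 5iLA, IL6ST is low in the 4 primed libraries, and THY1 and CD24 are highest in the 4 primed libraries.

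In 5iLA H7 against primed H1, 4 members were higher (SUSD2, ALPPL2, ALPP and IL6ST) and 4 were lower (ALPL, THY1, CD24 and PODXL). Among all genes tested 7.74% were called higher and 76.8% lower, together 84.6%. All 8 members passed the minimum of 1 RPKM, but SUSD2, ALPPL2 and ALPP did so only through 5iLA H7, with means of 0.794, 0.271 and 0.0588 RPKM over the other 6 libraries, so their being called carries no weight of its own. All 8 directions and calls held under each of the 9 alternatives run for this comparison. In t2iGo H1 against primed H1, 1 member was higher (IL6ST) and 5 were lower (SUSD2, ALPL, THY1, CD24 and PODXL), where 8.77% of all genes were called higher and 63% lower, together 71.8%. In 5iLA H7 against t2iGo H1, 3 members were higher (SUSD2, ALPPL2 and ALPP) and 4 lower (ALPL, THY1, CD24 and PODXL), where 14.9% of all genes were called higher and 40.1% lower, together 55%.

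**Figure D3:**
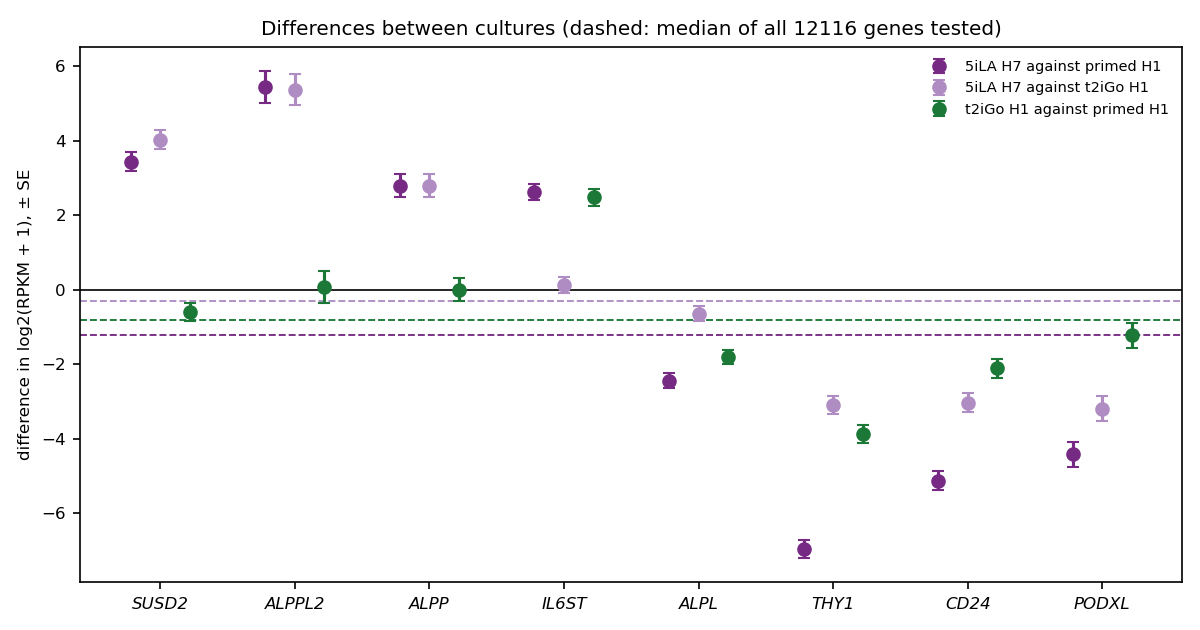
Difference in log2(RPKM + 1) ± SE of each gene between cultures, from limma over 9 libraries, with dashed lines at the median of all 12116 genes tested. The span runs from 5.44 for ALPPL2 to -6.95 for THY1 in 5iLA H7 against primed H1, while in t2iGo H1 against primed H1 ALPPL2 and ALPP lie near 0 and SUSD2 and PODXL lie close to the median of all genes.

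SUSD2, at chr22:24181487-24189106 on GRCh38.p14 in RefSeq, had 39.9, 13.8 and 19.3 RPKM in the pCCNE1, uCCNE1 and control shRNA libraries of 5iLA H7. It had 0.387, 0.383 and 0.480 RPKM in those of t2iGo H1 and 1.56, 0.607 and 1.35 RPKM in those of primed H1. The 3 cultures did not overlap, with 5iLA H7 far above the others and t2iGo H1 lowest. The difference in log2(RPKM + 1) was 3.44 ± 0.24 (SE) for 5iLA H7 against primed H1 (limma, Benjamini-Hochberg adjusted p = 2.05e-07) and 4.03 ± 0.24 for 5iLA H7 against t2iGo H1 (limma, adjusted p = 2.88e-07). For t2iGo H1 against primed H1 it was -0.59 ± 0.24 (limma, adjusted p = 0.0479), which is above the median of all genes by 0.23. That call was lost under all 3 other scalings, without the minimum on RPKM, and without the control or the pCCNE1 libraries, and with a pseudocount of 0.1 the difference was -1.21. SUSD2 was thus measured at low levels outside 5iLA, with an estimated 8.38 to 22.8 reads in t2iGo H1 and 41.8 to 125 reads in primed H1. It passed the minimum only through 5iLA H7, so its calls in the comparisons with 5iLA H7 carry no weight of their own.

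ALPPL2 had the widest span of the naive-side genes. In the pCCNE1, uCCNE1 and control shRNA libraries it had 32.3, 28.3 and 156 RPKM in 5iLA H7, 0.445, 0.331 and 0.143 RPKM in t2iGo H1 and 0.135, 0.217 and 0.355 RPKM in primed H1. 5iLA H7 stood apart, and t2iGo H1 and primed H1 overlapped. The control shRNA library of 5iLA H7, where ALPPL2 ranked above 99.0% of the genes with a value above 0, was 5.52 times the lowest of its culture. Its difference in log2(RPKM + 1) was 5.44 ± 0.42 (SE) in 5iLA H7 against primed H1 (limma, adjusted p = 3.56e-07), the 61st highest of 12116 genes. It was 5.36 ± 0.42 in 5iLA H7 against t2iGo H1 (limma, adjusted p = 1.61e-06), and 0.08 ± 0.42 in t2iGo H1 against primed H1 (limma, adjusted p = 0.878). ALPPL2 passed the minimum only through 5iLA H7. Its rank and its calls in the comparisons with 5iLA H7 therefore carry no weight of their own.

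ALPP, the placental alkaline phosphatase, followed the same order at lower levels. It had 4.24, 3.73 and 14.9 RPKM in the pCCNE1, uCCNE1 and control shRNA libraries of 5iLA H7. In t2iGo H1 it had 0.122 RPKM, was listed at 0, and had 0.0548 RPKM in these libraries, and in primed H1 it had 0.0326, 0.0530 and 0.0908 RPKM. Values outside 5iLA stood for an estimated 5.07 reads at most. ALPP made up 8.71% to 11.6% of the summed RPKM of ALPP and ALPPL2 in the 5iLA H7 shRNA libraries. On the log2(RPKM + 1) scale ALPP differed by 2.79 ± 0.31 (SE) for 5iLA H7 against primed H1 (limma, adjusted p = 6.04e-06) and 2.79 ± 0.31 for 5iLA H7 against t2iGo H1 (limma, adjusted p = 2.39e-05). These sizes depend on the pseudocount, and with 0.1 in place of 1 they were 5.33 and 5.38. In t2iGo H1 against primed H1 the difference was -0.00 ± 0.31 (limma, adjusted p = 0.999). ALPP passed the minimum only through 5iLA H7, so its calls in the comparisons with 5iLA H7 carry no weight of their own. The intestinal paralog ALPI was listed at 0 in all 11 libraries.

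Because ALPP is made by the placenta, 8 trophoblast markers were read beside it. Their summed level was 43.0 to 59.8 RPKM in the 5iLA H7 shRNA libraries, 4.09 to 7.37 RPKM in t2iGo H1 and 4.82 to 10.6 RPKM in primed H1. CGA, the alpha subunit of chorionic gonadotropin, made up most of it in 5iLA H7 with 39.5 to 51.9 RPKM and was listed at 0 in all 3 primed H1 libraries. The other 7 were each at most 2.72 RPKM in 5iLA H7, the highest of them HAND1 and GATA2 (2.18 RPKM at most) and the lowest TP63 (0.19 RPKM at most). KRT7 went the other way, at 0.217 to 0.539 RPKM in 5iLA H7, against 4.38 RPKM or more in each primed H1 library, and 1 to 5 of the 8 markers reached 1 RPKM in a library. In bulk RNA, fewer cells of a type and less RNA per cell cannot be told apart. The part of such cells in the ALPP and ALPPL2 values was not tested.

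IL6ST, at chr5:55935095-55994963 on that build, was the one naive-side gene that was high in both naive media. It had 17.9, 9.32 and 18.5 RPKM in the pCCNE1, uCCNE1 and control shRNA libraries of 5iLA H7, 20.6, 11.1 and 9.99 RPKM in those of t2iGo H1 and 2.22, 1.03 and 1.54 RPKM in those of primed H1. 5iLA H7 and t2iGo H1 overlapped and all of their libraries lay above all 3 primed H1 libraries. The mean RPKM was 9.54 times that of primed H1 in 5iLA H7 and 8.69 times in t2iGo H1. In log2(RPKM + 1) IL6ST differed by 2.61 ± 0.22 (SE) for 5iLA H7 against primed H1 (limma, adjusted p = 6.12e-07) and 2.48 ± 0.22 for t2iGo H1 against primed H1 (limma, adjusted p = 1.54e-06), the 141st highest of 12116 genes. For 5iLA H7 against t2iGo H1 it was 0.14 ± 0.22 (limma, adjusted p = 0.622), and this became 0.59 (adjusted p = 0.0232) with median-ratio scaling and 0.49 (adjusted p = 0.0446) with quantile normalization. Without the control shRNA libraries it was -0.21.

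The other genes of LIF and gp130 signalling were read as a list. Of 11 tested, 1 was higher and 6 were lower in 5iLA H7 than in primed H1, with a median of -0.75 beside -1.23 for all genes, where 7.74% of all genes were called higher and 76.8% lower. In t2iGo H1, 4 were higher and 5 lower than in primed H1, with a median of -0.52 beside -0.82, where 8.77% of all genes were called higher and 63% lower. IL6R, the interleukin 6 receptor chain, was the one that was higher in 5iLA H7, at 7.27, 3.96 and 4.9 RPKM in the pCCNE1, uCCNE1 and control shRNA libraries, against 0.381, 0.405 and 0.465 RPKM in those of primed H1. Its difference in log2(RPKM + 1) was 2.14 ± 0.19 (limma, adjusted p = 1.12e-06). LIFR, the LIF receptor chain that pairs with IL6ST, was higher in t2iGo H1 than in primed H1 by 1.03 ± 0.18 (limma, adjusted p = 3.40e-04), and it was lower in 5iLA H7 than in t2iGo H1, at -1.79 ± 0.18 (limma, adjusted p = 1.33e-05). SOCS3 and STAT3, a feedback inhibitor and the transcription factor of the pathway, were lower in 5iLA H7 than in primed H1, at -1.85 ± 0.22 and -1.61 ± 0.20 (limma, adjusted p = 1.10e-05 and 1.61e-05).

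THY1, at chr11:119415476-119424985, showed the largest fall of the 8. It had 0.0314, 0.147 and 0.0248 RPKM in the pCCNE1, uCCNE1 and control shRNA libraries of 5iLA H7, which stand for an estimated 1.48, 6.01 and 1.48 reads. In the same order it had 6.73, 8.91 and 8.75 RPKM in t2iGo H1 and 195, 123 and 94.5 RPKM in primed H1. The 3 cultures did not overlap, and t2iGo H1 lay between the others. The log2(RPKM + 1) difference was -6.95 ± 0.24 (SE) for 5iLA H7 against primed H1 (limma, adjusted p = 1.94e-09), the 5th lowest of 12116 genes. It was -3.09 ± 0.24 for 5iLA H7 against t2iGo H1 (limma, adjusted p = 1.70e-06) and -3.87 ± 0.24 for t2iGo H1 against primed H1 (limma, adjusted p = 2.26e-07). With so few reads in 5iLA H7 the sizes depend on the pseudocount, and with 0.1 they were -9.68 and -5.68 against primed H1 and t2iGo H1.

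THY1 is also a mark of fibroblasts, and 8 fibroblast markers were read beside it. Their summed level was 5.27 to 16.4 RPKM in the 5iLA H7 shRNA libraries, 71.0 to 227 RPKM in t2iGo H1 and 35.0 to 54.2 RPKM in primed H1. In t2iGo H1 the sum was mostly COL3A1, a fibrillar collagen, at 47.3 to 137 RPKM, and LUM, the matrix proteoglycan lumican, at 13.9 to 71.5 RPKM, and 6 to 8 of the 8 markers reached 1 RPKM. COL1A2, another collagen gene, went the other way, at 1.41 to 2.31 RPKM in t2iGo H1, against 23.2 to 29.6 RPKM in primed H1, and COL1A1 and PDGFRB overlapped between those cultures. Their part in the THY1 values was not tested. In the pCCNE1, uCCNE1 and control shRNA libraries of t2iGo H1 the fibroblast sum was 227, 131 and 71.0 RPKM. THY1 was lowest in the first of these, at 6.73, 8.91 and 8.75 RPKM. IL6ST was highest of the 9 shRNA libraries in that pCCNE1 library, which also had the highest fibroblast and endoderm sums. That library had the lowest estimated depth as well, at 6.37 M reads.

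CD24 was the most abundant member in t2iGo H1 and primed H1. It had 41.6, 40.8 and 18.0 RPKM in the pCCNE1, uCCNE1 and control shRNA libraries of 5iLA H7, 246, 275 and 266 RPKM in those of t2iGo H1 and 1088, 1298 and 1014 RPKM in those of primed H1. In primed H1 it ranked above 99.8% to 99.9% of the genes with a value above 0, and the 3 cultures did not overlap. CD24 differed in log2(RPKM + 1) by -5.12 ± 0.25 (SE) for 5iLA H7 against primed H1 (limma, adjusted p = 1.87e-08), -3.03 ± 0.25 for 5iLA H7 against t2iGo H1 (limma, adjusted p = 2.83e-06) and -2.10 ± 0.25 for t2iGo H1 against primed H1 (limma, adjusted p = 1.66e-05). The files list CD24 on chromosome Y, whereas RefSeq places the gene at chr6:106969831-106976855 on GRCh38.p14, so reads of CD24 and of copies of its sequence cannot be told apart here. Untreated primed H7, the line of the 5iLA libraries, had 575 RPKM of it.

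PODXL, at chr7:131500271-131556628, kept a high level in t2iGo H1. It had 6.69, 14.5 and 26.9 RPKM in the pCCNE1, uCCNE1 and control shRNA libraries of 5iLA H7, 141, 154 and 112 RPKM in those of t2iGo H1 and 297, 317 and 335 RPKM in those of primed H1. The 3 cultures did not overlap. On that log2 scale the PODXL difference was -4.41 ± 0.33 (SE) for 5iLA H7 against primed H1 (limma, adjusted p = 3.15e-07) and -3.18 ± 0.33 for 5iLA H7 against t2iGo H1 (limma, adjusted p = 1.48e-05). For t2iGo H1 against primed H1 it was -1.22 ± 0.33 (limma, adjusted p = 0.00604), 0.40 below the median of all genes, and the call was lost under all 3 other scalings, where the difference was -0.06 to -0.29, and without the minimum on RPKM.

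Of the genes linked to PODXL, CD34 was at most 0.257 RPKM and EMCN was listed at 0 in all 11 libraries; both are sialomucins related to it. Among the 4 tested genes for proteins that tie such sialomucins to the actin cytoskeleton, 3 were lower in 5iLA H7 than in primed H1, a count near the 76.8% of all genes called lower, with a median of -2.28 beside -1.23 for all genes. SLC9A3R1, which encodes the scaffold NHERF1, was at -2.73 ± 0.23, RDX (radixin) at -2.30 ± 0.19 and MSN (moesin) at -2.27 ± 0.23 (limma, adjusted p = 7.82e-07, 6.28e-07 and 3.24e-06). EZR, which encodes ezrin, had a difference of -0.36 ± 0.22 (limma, adjusted p = 0.146). In t2iGo H1 against primed H1, SLC9A3R1, MSN and EZR were lower, where 63% of all genes were called lower. The median over the 4 was -0.86 beside -0.82 for all genes.

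ALPL, the tissue-nonspecific alkaline phosphatase at chr1:21508984-21578410, was lower in 5iLA H7 than in primed H1, where ALPPL2 and ALPP were higher. It had 8.65, 14.2 and 21.0 RPKM in the pCCNE1, uCCNE1 and control shRNA libraries of 5iLA H7, 15.9, 25.5 and 26.5 RPKM in those of t2iGo H1 and 63.6, 79.1 and 98.7 RPKM in those of primed H1. Primed H1 stood apart, and 5iLA H7 and t2iGo H1 overlapped. In log2(RPKM + 1) ALPL differed by -2.44 ± 0.20 (SE) for 5iLA H7 against primed H1 (limma, adjusted p = 4.67e-07) and -1.80 ± 0.20 for t2iGo H1 against primed H1 (limma, adjusted p = 6.98e-06). For 5iLA H7 against t2iGo H1 it was -0.64 ± 0.20 (limma, adjusted p = 0.0158), and that call was lost with median-ratio scaling (-0.20), with quantile normalization (-0.30), and without the uCCNE1 (-0.56) or the pCCNE1 libraries (-0.56). In the control shRNA library of 5iLA H7, ALPPL2 at 156 RPKM lay above ALPL at 21.0 RPKM, whereas in all 3 primed H1 libraries ALPL had 63.6 to 98.7 RPKM and ALPPL2 0.135 to 0.355 RPKM.

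ALPPL2, ALPP, ALPL, THY1 and CD24 all need the GPI anchor, and 15 genes of its synthesis and transfer were read as a list. In 5iLA H7 against primed H1, 11 of 15 were lower and 0 were higher, with a median of -1.17 beside -1.23 for all genes, a count near the 76.8% of all genes called lower. In t2iGo H1 against primed H1, 10 were lower and 1 was higher, with a median of -0.70 beside -0.82, near the 63% of all genes called lower. PGAP1, a remodelling enzyme of the anchor, had the smallest p in 5iLA H7 against primed H1, at -2.63 ± 0.17 (limma, adjusted p = 1.08e-07), and GPAA1, a subunit of the transamidase that attaches it, in t2iGo H1 against primed H1, at -2.18 ± 0.18 (limma, adjusted p = 9.13e-07).

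Other surface antigens were read beside the 8 genes. On the primed side, B3GAT1, the enzyme that makes the CD57 glycan, was at -3.24 ± 0.17 in 5iLA H7 and at -2.55 ± 0.17 in t2iGo H1, both against primed H1 (limma, adjusted p = 2.49e-08 and 2.89e-07). B3GAT1 was below 1 RPKM in every 5iLA H7 and t2iGo H1 shRNA library. It passed the minimum only through primed H1, so its being called carries no weight of its own. On the naive side, A4GALT, the enzyme that makes the CD77 glycan, was higher in 5iLA H7 than in primed H1 by 1.91 ± 0.26 (limma, adjusted p = 2.79e-05) and was lower in t2iGo H1 than in primed H1, at -1.29 ± 0.26 (limma, adjusted p = 8.15e-04). ST6GAL1, which makes the CD75 glycan, was at -0.49 ± 0.19 in 5iLA H7 against primed H1 (limma, adjusted p = 0.0309), above the median of all genes. In t2iGo H1 against primed H1, ST6GAL1 was at -1.84 ± 0.19 (limma, adjusted p = 4.77e-06), below the median of all genes. CD7 did not reach the minimum level. Of 10 surface antigens of pluripotent cells in general, 1 was higher and 5 were lower in 5iLA H7 than in primed H1, with a median of -0.36 beside -1.23, where 76.8% of all genes were called lower. In t2iGo H1, 6 of the 10 were lower than in primed H1, with a median of -1.15 beside -0.82, where 63% of all genes were. CDH1, the epithelial cadherin, had 67.4, 67.7 and 93.8 RPKM in the pCCNE1, uCCNE1 and control shRNA libraries of 5iLA H7, 7.49, 9.63 and 8.09 RPKM in those of t2iGo H1 and 65.9, 95.5 and 87.4 RPKM in those of primed H1. The t2iGo H1 libraries alone were low, at -3.15 ± 0.20 against primed H1 (limma, adjusted p = 2.61e-07).

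The untreated H7 pair holds the cell line fixed, with 1 library on each side and therefore no test. Untreated 5iLA H7 had 6.01 RPKM of SUSD2, 27.1 of ALPPL2, 2.27 of ALPP and 16.8 of IL6ST, against 0.253, 0.2996, 0.0803 and 1.93 RPKM in untreated primed H7. It had 1.63 RPKM of THY1 and 186 of CD24, against 30.3 and 575 RPKM in untreated primed H7. All 6 differed by more than 1 in log2(RPKM + 1), the first 4 higher in 5iLA and THY1 and CD24 lower. Among 11015 genes with a mean of at least 1 RPKM here, 11% were past 1 in the higher and 3.94% in the lower direction, together 15%, and the median difference was 0.23. SUSD2, ALPPL2 and ALPP were below 1 RPKM in untreated primed H7 and reached that minimum only through untreated 5iLA H7. Their being past 1 therefore carries no weight of its own. The differences were 4.44 for ALPPL2, 2.60 for IL6ST, 2.48 for SUSD2, 1.60 for ALPP, -3.57 for THY1 and -1.62 for CD24, and those of ALPP and SUSD2 were 3.72 and 4.11 with a pseudocount of 0.1.

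ALPL and PODXL did not pass 1 in this pair. Untreated 5iLA H7 had 20.3 RPKM of ALPL and 138 RPKM of PODXL, against 20.7 and 168 RPKM in untreated primed H7, with differences of -0.03 and -0.28. Whether these differ from the differences between 5iLA H7 and primed H1 was not tested. ALPL in untreated primed H7 lay within the range of the 5iLA and t2iGo shRNA libraries and below all 3 primed H1 libraries. Those primed H1 libraries come from another line and a separate table, taken as scaled independently.

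The 5iLA H7 cultures with and without shRNA were not alike in these genes. The control shRNA library of 5iLA H7 had 0.0152 times the THY1, 0.0967 times the CD24 and 0.195 times the PODXL of untreated 5iLA H7. It had 5.76 times its ALPPL2, 6.57 times its ALPP and 3.22 times its SUSD2, and 1.11 times its IL6ST and 1.04 times its ALPL. These ratios set values across separate tables, taken as scaled independently, with 1 library on each side. Untreated 5iLA H7 also had a higher primed marker sum (190 RPKM, 120 of it VIM, against 11 RPKM in that control library), and more of the fibroblast markers (60.9 against 5.27 RPKM), and 7 of the 8 trophoblast markers reached 1 RPKM in it. The part of such cells was not tested.

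The pCCNE1 and uCCNE1 shRNAs were each set against the control shRNA over the 3 cultures. No member was called for either, and of all 12116 genes limma called 0 (0%) for pCCNE1 and 0 (0%) for uCCNE1 at an adjusted p under 0.05, while 1792 and 1236 had an unadjusted p under 0.05. ALPL had the smallest p among the 8 for pCCNE1, at -0.84 ± 0.20 (SE) on the log2(RPKM + 1) scale (limma, adjusted p = 0.1996), and was lower in 3 of 3 cultures, at 41.1%, 60.01% and 64.5% of the control in 5iLA H7, t2iGo H1 and primed H1. For uCCNE1 the ALPPL2 difference was -0.79 ± 0.42 on that scale (limma, adjusted p = 0.543). Without the t2iGo H1 libraries it was -1.29 (limma, adjusted p = 0.0463), when 123 genes were called. Neither ALPPL2 value is read as an effect over cultures. The control had 0.143 RPKM in t2iGo H1 and 0.355 RPKM in primed H1, which leaves no room for a fall. Both values rest on 5iLA H7, where the single difference was -2.42.

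Each CCNE1 shRNA library was also set against the control of its own culture. A fall past 1 on the log2(RPKM + 1) scale needs a control above 1 RPKM, which ALPPL2 and ALPP had in 5iLA H7 alone. The control was also below 1 RPKM for SUSD2 in t2iGo H1 (0.480 RPKM) and for THY1 in 5iLA H7 (0.0248 RPKM). Counts of members past 1 are therefore not compared between cultures. With pCCNE1 in 5iLA H7, SUSD2 and CD24 were higher by more than 1 in log2(RPKM + 1), at 1.01 and 1.16, and ALPPL2, ALPP, ALPL and PODXL were lower by more than 1, at -2.24, -1.60, -1.19 and -1.86. That is 6 of 8 members, where 5.78% of all genes were past 1 in either direction, 0.875% higher and 4.9% lower, and the median was -0.30. These shares include genes whose control was too low for a fall past 1, as for THY1. The split of reads between ALPPL2 and ALPP is uncertain, so they may not count as separate members. With uCCNE1 in 5iLA H7, CD24 was at 1.14 and ALPPL2 and ALPP were at -2.42 and -1.75, which is 3 of 8, where 5.46% of all genes were past 1 (0.528% higher and 4.94% lower) and the median was -0.34. ALPL fell short of 1 after 2 other scalings, at -0.83 and -0.77 with pCCNE1.

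Both differences in 5iLA H7 share 1 control library and have no replicate. ALPPL2 was at 20.7% and 18.1% of that control with pCCNE1 and uCCNE1, and untreated 5iLA H7 had 27.1 RPKM in its own table, beside the 32.3 and 28.3 RPKM of those libraries. The other marker lists differed as well: naive markers summed to 524 and 465 RPKM with pCCNE1 and uCCNE1, against 707 RPKM in the control, fibroblast markers to 14.7 and 16.4, against 5.27 RPKM, and primed markers to 21.5 and 17.5, against 11 RPKM. Trophoblast markers at 1 RPKM or more numbered 5 and 5, against 1 in the control. Their part in these differences was not tested. CD24 was at 231% and 227% of that control, and untreated 5iLA H7 lay above all 3 shRNA libraries of the medium.

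In primed H1, THY1 alone passed 1, at 1.03 with pCCNE1 (195 RPKM against 94.5 in the control), where 4.53% of all genes were past 1, 0.924% higher and 3.61% lower. No member passed 1 with uCCNE1 in primed H1 (3.44% of all genes, 0.619% higher and 2.82% lower), with pCCNE1 in t2iGo H1 (3.46%, 0.735% higher and 2.72% lower) or with uCCNE1 in t2iGo H1 (1.02%, 0.38% higher and 0.636% lower). ALPPL2 in primed H1 was at 38.1% and 61.1% of its control with pCCNE1 and uCCNE1, and in t2iGo H1 at 310% and 231%, on an estimated 5.00 to 16.6 reads. IL6ST came nearest in t2iGo H1, at 0.97 with pCCNE1, and it was past 1 after 2 other scalings, at 1.09 and 1.15.

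**Figure D4:**
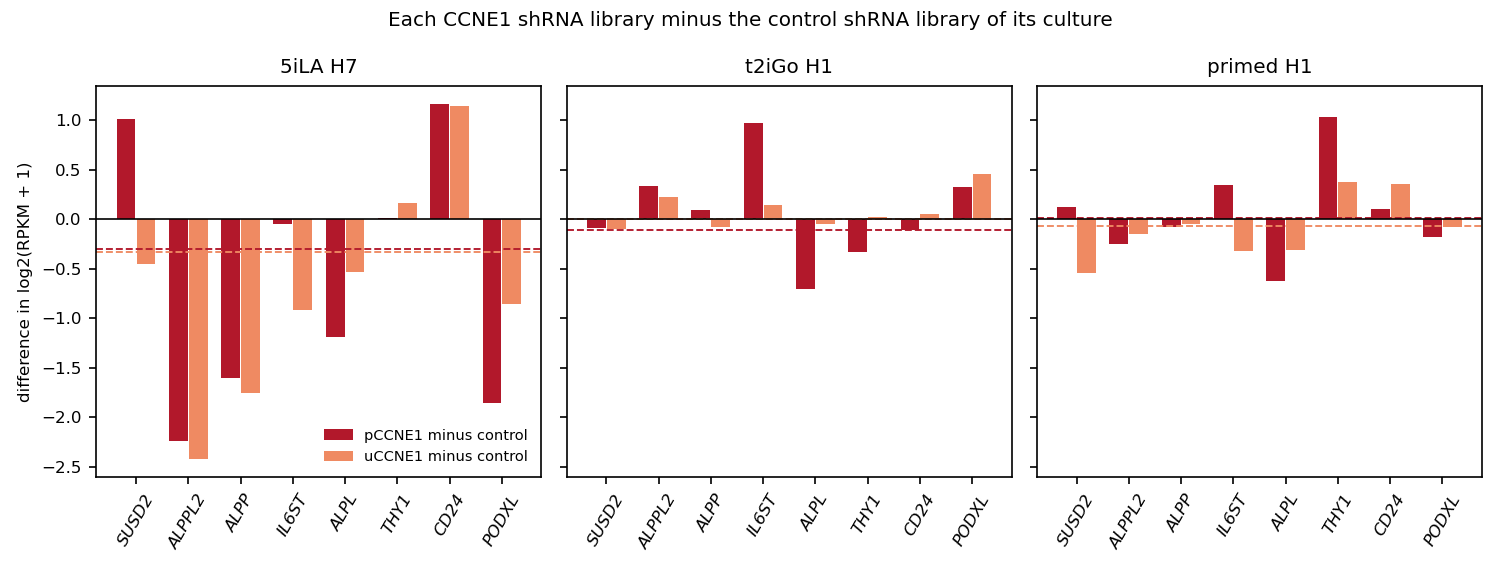
Difference in log2(RPKM + 1) of each gene between the pCCNE1 or uCCNE1 library and the control shRNA library of the same culture, 1 library on each side, with dashed lines at the median of all genes. CD24 lies at 1.16 and 1.14 in 5iLA H7 and PODXL at -1.86 and -0.85. ALPPL2 and ALPP in the other 2 cultures, SUSD2 in t2iGo H1 and THY1 in 5iLA H7 have too low a level for a fall past 1 to show.

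Whether the effect of a CCNE1 shRNA differed between cultures was tested with both CCNE1 shRNA libraries of a culture pooled and set against its control. No member was called by limma's F test, where 13 of 12116 genes were (0.107%). CD24 had effects in log2(RPKM + 1) of 1.15 ± 0.22 (SE) in 5iLA H7, -0.03 ± 0.22 in t2iGo H1 and 0.23 ± 0.22 in primed H1 (limma, adjusted p = 0.629). PODXL had effects of -1.36 ± 0.38, 0.39 ± 0.38 and -0.13 ± 0.38 in the same cultures (limma, adjusted p = 0.629). The tests of ALPPL2 and ALPP (limma, adjusted p = 0.125 and 0.452) are not read, because their level outside 5iLA leaves no room for a fall on this scale.

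For each member the other tested genes with the most similar profile were taken by the root mean square difference in centred log2(RPKM + 1) over the 9 shRNA libraries, leaving out genes the files place on chromosome Y. THY1 was closest to SFRP2, a secreted WNT modulator that is also among the primed markers here (0.37), and to TMSB15A (0.44), beside a spread of 2.86 of its own. ALPPL2 was closest to SYCP3, a gene of the meiotic synaptonemal complex (0.34), and to ZNF676, a zinc finger gene (0.50), beside 2.63. ALPP was closest to AQPEP (0.20) and LUZP4 (0.22), beside 1.39, and SUSD2 to the metallothionein MT1M (0.35) and LOC100505817 (0.40), beside 1.82. CD24 was closest to LRRN1 and MARCKSL1 (0.32 and 0.33), PODXL to FSTL1 and NGFRAP1 (0.35 and 0.37), ALPL to LDB1 and NT5C3L (0.16 and 0.16), and IL6ST to the zinc finger genes ZNF460 and ZNF808 (both 0.43). No member was among the 2 closest genes of another.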

How the data were processed

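The authors deposited RPKM values, 1 per gene and library, with the 9 shRNA libraries in a table apart from the 2 untreated ones, and the tables were taken as scaled independently. TopHat2 2.3.0, Cufflinks 1.2.1 and the hg19 build are named per the submitters' processing notes; no source used here gives their settings or the use of strand. Transcript lengths for 21905 genes came from a GENCODE file of build GRCh38 and served only to estimate depth, so reads per gene are estimates.

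The analysis used R 4.3.3 and limma 3.58.1 on log2(RPKM + 1), which understates the change of low genes, with a trend in the moderation and genes of at least 1 RPKM in the mean. The additive model held culture and shRNA (4 residual degrees of freedom) and the model of differing effects culture by knockdown (3). Benjamini-Hochberg adjustment covered all genes tested, at 0.05. Single libraries were compared without a test, and called means past 1 on the log2 scale. The model code was tested on simulated data. Sequences were aligned with Biopython 1.88. The 8 genes, the marker lists and 6 gene lists were chosen with earlier results of these data known; from each list up to 4 genes per comparison with the smallest p may be named. Alternatives were a pseudocount of 0.1, no minimum, 3 other scalings (median ratio, the sum of protein-coding entries, quantile), fewer libraries and leaving out a culture or an shRNA. A result of the list of other primed surface antigens is not reported here.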

Additional observations from a re-analysis of the deposited data

How the results depend on the processing

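No paired analysis was possible because each group has 1 library and no replicate numbers pair libraries, beyond the culture and shRNA terms that the model already holds. The 8 genes kept direction and call in 72 of 72 alternative results for 5iLA H7 against primed H1, 65 of 72 for 5iLA H7 against t2iGo H1 and 56 of 72 for t2iGo H1 against primed H1. These counts include SUSD2, ALPPL2 and ALPP, which passed the minimum only through 5iLA H7. Their results in the comparisons with 5iLA H7 carry no weight of their own. ALPP in t2iGo H1 against primed H1 turned positive with median-ratio scaling (0.0438), protein-coding rescaling (0.0570) and quantile normalization (0.0675). Leaving out 1 shRNA at a time gave -0.0615 to 0.0356 for ALPP and -0.0575 to 0.239 for ALPPL2 in that comparison, and -0.21 to 0.32 for IL6ST in 5iLA H7 against t2iGo H1. Leaving out 1 culture at a time gave, for pCCNE1 against control, -0.16 to 0.52 for THY1, -1.25 to 0.0412 for ALPPL2, -0.841 to 0.00487 for ALPP, -0.00562 to 0.633 for CD24 and -1.02 to 0.0725 for PODXL. For uCCNE1 against control it gave -1.29 to 0.0325 for ALPPL2 and -0.47 to 0.18 for PODXL, and PODXL was 0.0414 with protein-coding rescaling and 0.0349 with quantile normalization. Genes called numbered 0 to 94 for pCCNE1 and 0 to 123 for uCCNE1 when a culture was left out, 38 for uCCNE1 in the 6 libraries compared alone, and for differing shRNA effects 521 without the minimum and 6 to 11 when a culture was left out. The cause was not tested.

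Genes past 1 in single pairs, with a pseudocount of 0.1, numbered 1816 and 1740 for pCCNE1 and uCCNE1 in 5iLA H7 (700 and 662 with 1), 1305 and 406 in t2iGo H1 (419 and 123) and 881 and 780 in primed H1 (549 and 417). With median-ratio scaling they numbered 401 for uCCNE1 in 5iLA H7 and 269 in primed H1. With protein-coding rescaling they numbered 410 for uCCNE1 in 5iLA H7, and 356 and 256 for pCCNE1 and uCCNE1 in primed H1. Depth limits SUSD2, ALPPL2 and ALPP outside 5iLA and THY1 in the 5iLA H7 shRNA libraries, where a few reads carry each value.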
